A study of Mus musculus with 15 samples.

Results

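Fatty acid elongases and desaturases are the membrane enzymes that set how long and how unsaturated a cell's fatty acids are. The transcripts described here are those of 10 genes, found by their symbols in the gene tables: the elongases Elovl1, Elovl2, Elovl4, Elovl5, Elovl6 and Elovl7, the stearoyl-CoA desaturases Scd1 and Scd2, and the fatty acid desaturases Fads1 and Fads2. All 10 were found among 23699 listed entries, all 10 were among the 22924 genes with usable values, and all 10 passed the filter on low values that left 11254 genes to test.

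RNA was sequenced from sorted mouse islet cells in 15 libraries. RFP, switched on by cre recombination, marked beta cells and cells that had been beta cells, and Aldefluor, a dye trapped by aldehyde dehydrogenase activity, split them into ALDH- and ALDH+ populations. Control cells were heterozygous for FoxO 1, 3 and 4 per the labels, and gave 3 ALDH- and 2 ALDH+ libraries. Foxo knockout cells carried knockouts of all 3 genes per the labels and gave 5 ALDH- and 5 ALDH+ libraries. The study calls the controls wild-type, where the labels give heterozygous alleles. Controls and knockouts shared the RFP reporter and a cre driver. All mice were of a mixed 129JC57BL/6 background and the labels name no treatment. The study describes the sort on islets from several RIP-Cre mice of each genotype, 6 months old.

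The cre driver was RIP-Cre, active from the insulin promoter, in 9 libraries, and Pdx-Cre, active in pancreatic precursors, in 6. RIP-Cre drove 2 ALDH- control, 1 ALDH+ control, 3 ALDH- knockout and 3 ALDH+ knockout libraries, and Pdx-Cre drove the other 1, 1, 2 and 2. Pdx-Cre recombines in precursors of every pancreatic cell type, so RFP is a less strict mark of beta cells in those libraries. Nothing in the labels ties libraries to separate animals, so p-values measure the spread between these libraries, part of which may be technical.

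Fatty acid elongation takes place in the endoplasmic reticulum, where an elongase joins malonyl-CoA to an acyl-CoA and sets the pace of a cycle that adds carbons in pairs. Desaturases put double bonds into the chain with electrons passed through cytochrome b5, the stearoyl-CoA desaturases making monounsaturated and the Fads enzymes polyunsaturated products. In beta cells these products enter membranes and stored lipid, and the balance of saturated to unsaturated chains is known to bear on how the cells tolerate a fat load.

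The feature that all 10 proteins share is the histidine box, a run of histidines that holds the iron of the desaturases and is needed by the elongases. The coding sequence of each is shown so that the members can be compared, from GENCODE transcripts on GRCm38, with the histidine codons of the pattern CAY NNN NNN CAY CAY in capitals and the flanking codons in lower case. The windows are written in the direction of the gene.
Elovl1: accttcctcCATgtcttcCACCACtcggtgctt
Elovl2: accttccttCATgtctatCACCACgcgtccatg
Elovl4: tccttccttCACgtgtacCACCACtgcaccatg
Elovl5: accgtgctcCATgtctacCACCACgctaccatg
Elovl6: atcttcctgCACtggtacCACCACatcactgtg
Elovl7: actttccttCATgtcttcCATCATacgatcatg
Scd1, first box: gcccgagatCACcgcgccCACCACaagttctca
Scd2, first box: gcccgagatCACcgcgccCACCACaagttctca
Fads1, second box: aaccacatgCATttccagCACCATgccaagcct
Fads2: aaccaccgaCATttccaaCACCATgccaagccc

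A single match of this pattern was found in each elongase and in Fads2, and 2 were found in Scd1, Scd2 and Fads1. First and second box number the matches of this pattern along the coding sequence, and histidines of other spacing were not searched. In GRCm38 the Elovl6 box lies in exon 5 on the plus strand (chr3:129633098-129633130), the Elovl7 box in exon 6 on the plus strand (chr13:108274322-108274354) and the Elovl2 box in exon 5 on the minus strand (chr13:41189992-41190024). The first Scd1 box lies in exon 4 on the minus strand (chr19:44401848-44401880) and the first Scd2 box in exon 4 on the plus strand (chr19:44299627-44299659), and the windows of these 2 genes read the same. Of the 50-base stretches of their transcripts, 4.66% in Scd1 and 4.01% in Scd2 also occur in another Scd gene, so reads over those stretches could be split between them. In Elovl6, 4.59% occur in another transcript, and in the other 7 members the share was at most 0.227%.

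The tables give the genes' positions in mm9. Scd1, Scd2, Fads1 and Fads2 all lie on chromosome 19, Fads2 at chr19:10138654-10175993 and Fads1 at chr19:10257378-10271362, and Scd2 at chr19:44368166-44381352 and Scd1 at chr19:44468940-44482199. Elovl2 (chr13:41277751-41315772) and Elovl7 (chr13:109004598-109077301) share chromosome 13, Elovl4 (chr9:83672299-83699912) and Elovl5 (chr9:77765172-77832326) share chromosome 9, and Elovl1 (chr4:118100698-118105521) and Elovl6 (chr3:129235304-129341411) stand alone. The letters of several motifs were searched on both strands in the 9 RefSeq promoters listed for 7 members on GRCm38 (250 bases before to 50 after the start). The Foxo-type letters TGTTTAC occurred in the promoter of Elovl6 only, against 3.65% of all promoters. The E-box CACGTG occurred in those of Elovl4 and Elovl5 (7.15% of all promoters). The inverted CCAAT box ATTGG occurred in those of Elovl4, Elovl5 and 1 of 2 of Elovl1 (37.4%). The sterol response element TCACNCCAC occurred in none (1.24%). These are descriptions of letters and not binding sites.

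The fragments summed over genes with an accepted estimate were between 7490987 and 10057002 per library (median 9280829). These sums leave out Ins1 in all 15 libraries and Ins2 in 3, whose estimates were marked as too deep, so they are not the full depth. Libraries of a group correlated at Pearson r between 0.936 and 0.982 over genes. Foxo1 was at 12.04 to 20.1 FPKM (fragments per kilobase of transcript, scaled to library size) in the 5 control libraries and at 0.0925 to 4.24 in the 10 knockouts, a log2 difference of -2.57 (SE 0.32, adjusted p = 0.00196). The highest knockout, at 4.24, was ALDH- replicate 4. Foxo3 was at 12.7 to 23.0 FPKM in controls and at 9.78 to 30.6 in knockouts, so its level did not follow the label. Foxo4 was low in every library, at 0 to 1.34 FPKM in controls and at 0 to 0.0669 in knockouts. A level over the whole gene also holds reads from outside a deleted part. Aldh1a3 was at 0.490 to 4.09 FPKM in ALDH- and at 22.1 to 76.9 FPKM in ALDH+ libraries. In these bulk samples fewer cells of a type and less RNA per cell cannot be told apart.

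The cells carried markers of beta cells, with summed levels of the 7 usable markers between 35369 and 127931 FPKM in the 15 libraries. Ins1 and Ins2 were not usable, and the sum does not give the level of each marker. Markers of other pancreatic cells came with the cre driver. The alpha cell markers (4 of 4 usable, Gcg among them) summed to 157 to 1019 FPKM in RIP-Cre and to 277 to 35849 FPKM in Pdx-Cre libraries. The acinar markers summed to at most 5.14 FPKM in RIP-Cre and to as much as 1414 FPKM in Pdx-Cre libraries. Each of the 7 was above 0 in at least 1 Pdx-Cre library. Of the beta cell markers, 5 of 7 were lower in Pdx-Cre libraries, among them Slc2a2, the glucose transporter, with a log2 difference of -2.88 (adjusted p = 3.3e-06 by limma). Delta cell markers summed to 436 to 1331 FPKM in RIP-Cre and to 770 to 14029 FPKM in Pdx-Cre libraries. Macrophage markers summed to 23.3 to 40.4 FPKM in RIP-Cre and to 37.8 to 152 FPKM in Pdx-Cre libraries. Adipocyte markers were at 0 in all RIP-Cre libraries and summed to at most 14.9 FPKM in Pdx-Cre libraries, and stellate cell markers to at most 1.14 FPKM in any library.

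The plot of levels by library shows a wide range among the enzymes. Elovl5, which lengthens polyunsaturated chains, and Scd2 were the most abundant, with medians over 15 libraries of 70.9 and 62.8 FPKM. Their ranges overlapped (44.8 to 88.0 and 26.2 to 113 FPKM), so these data do not set their order. Elovl5 held a median of 33.9% and Scd2 of 27.8% of the members' summed FPKM. Elovl2, which like Elovl5 lengthens polyunsaturated chains, had a median of 21.2 FPKM. Elovl1, an elongase of saturated and monounsaturated chains, had 16.7, and Fads1, the delta-5 desaturase, 14.8. Elovl6, which takes palmitate to stearate, had a median of 8.67 FPKM and a range of 3.82 to 15.4.

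The remaining members were low. Elovl4, known for very long chains in retina and skin, had a median of 3.21 FPKM, Scd1 2.32, Elovl7 1.47 and Fads2, the delta-6 desaturase, 1.13. Fads2 rested on a median of 16.0 fragments per library and Elovl7 on 79.0, against 2020 for Elovl5 and 3540 for Scd2, so counting error alone is about 25% for Fads2 and 1.68% for Scd2. Each gene's range overlapped that of its neighbour in the order. Elovl7 varied most, 46.1-fold between its lowest and highest library, and Elovl5 least, 1.96-fold.

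**Figure D1:**
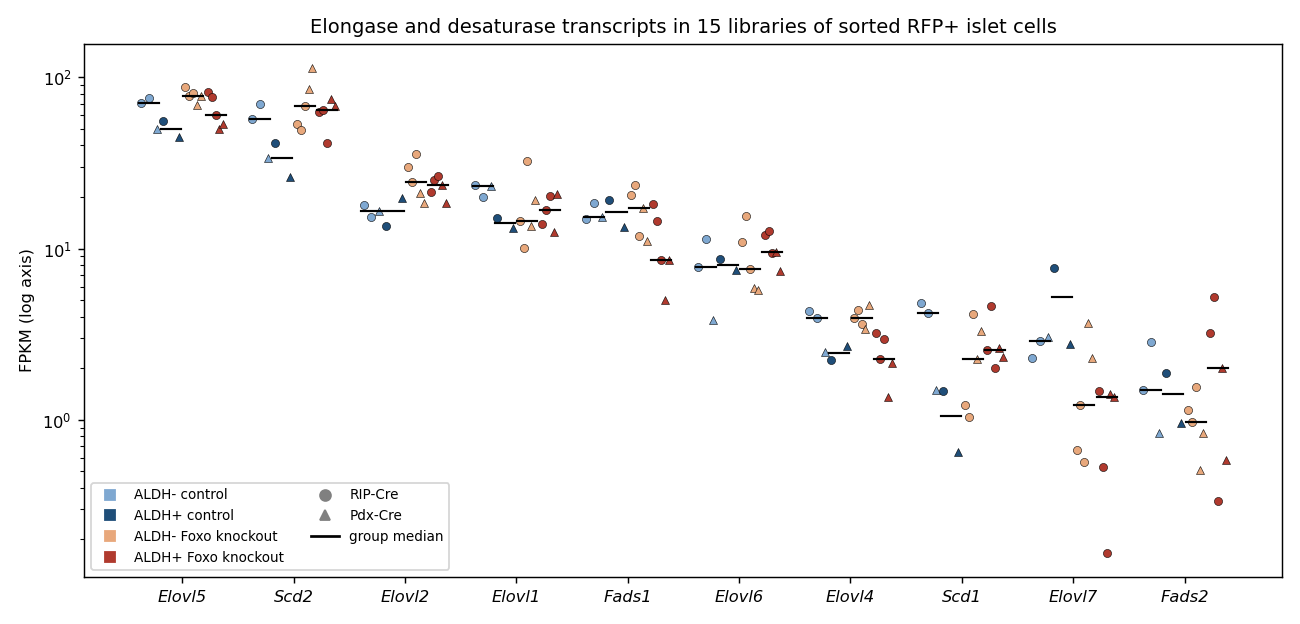
Points are FPKM values (log axis) of the 10 members in 15 libraries, coloured by group, round for RIP-Cre and triangular for Pdx-Cre libraries, with bars at the group medians. Elovl5 and Scd2 sit at the top, with medians over all libraries of 70.9 and 62.8 FPKM, and Fads2 at the bottom, with 1.13.

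The first question was whether loss of Foxo changes these transcripts. Averaged over ALDH populations, no member passed an adjusted p of 0.05 in a limma fit of all genes (13 of 11254 genes did, 0.116%). Leaving out 1 library gave 1 to 5 genes without any 1 of the 5 controls, ALDH- knockout replicate 3 or ALDH+ knockout replicate 2, 8 without ALDH+ knockout replicate 1, and 9 to 15 otherwise. The differences with the smallest p-values were lower Elovl7 and higher Elovl2, Scd2 and Elovl5 in knockouts. Those 4 of 10 members had an unadjusted p under 0.05, against 868 of all genes tested (7.71%). The median log2 difference of the members was 0.15, against 0.012 over all genes.

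Elovl7, an elongase of saturated and monounsaturated long chains, was at 2.30, 2.89 and 3.04 FPKM in the ALDH- controls and at 7.71 and 2.76 in the ALDH+ controls. In the ALDH- knockouts it was at 0.669, 1.22, 0.570, 3.65 and 2.29 FPKM, and in the ALDH+ knockouts at 1.47, 0.526, 0.167, 1.42 and 1.36. The ALDH+ groups did not overlap. The ALDH- groups overlapped through 1 Pdx-Cre knockout, replicate 4, at 3.65 FPKM, and all 6 RIP-Cre knockouts lay under every control. Here and below, groups that do not overlap are only described, and the share of all genes that separate so was not counted. The log2 difference of Elovl7 was -1.08 (SE 0.30, 95% interval -1.71 to -0.44, adjusted p = 0.272 by limma). Without ALDH+ control replicate 1, the library at 7.71 FPKM, it was -0.60, and without ALDH+ control replicate 2 it was -1.54.

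Elovl2 ran the other way. It was at 17.9, 15.2 and 16.6 FPKM in the ALDH- controls and at 13.6 and 19.7 in the ALDH+ controls. The ALDH- knockouts were at 29.8, 24.5, 35.7, 21.2 and 18.5 FPKM, all above the ALDH- controls, and the ALDH+ knockouts at 21.3, 24.99, 26.4, 23.5 and 18.3, with 1 library inside the control range. The log2 difference was 0.53 (SE 0.16, 95% interval 0.19 to 0.86, adjusted p = 0.336 by limma). It was 0.32 without ALDH+ control replicate 1 and 0.73 without replicate 2.

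Scd2, the main stearoyl-CoA desaturase here, was at 56.9, 69.9 and 33.7 FPKM in the ALDH- controls and at 41.1 and 26.2 in the ALDH+ controls. The ALDH- knockouts were at 53.2, 49.2, 68.3, 85.9 and 113 FPKM and the ALDH+ knockouts at 62.8, 64.1, 41.2, 75.2 and 67.9. The ALDH- groups overlapped, and the ALDH+ groups stood apart only by the gap from 41.1 to 41.2 FPKM. The log2 difference was 0.68 (SE 0.21, adjusted p = 0.349 by limma).

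The fitted differences of these genes were unequal under the drivers, but no difference between drivers passed the adjusted threshold. Among RIP-Cre libraries alone the log2 difference was -1.66 for Elovl7 (SE 0.35), 0.85 for Elovl2 (SE 0.18) and 0.18 for Scd2 (SE 0.19). Among Pdx-Cre libraries alone, a fit added after the values were seen, it was -0.39 for Elovl7 (SE 0.45), 0.11 for Elovl2 (SE 0.26) and 1.41 for Scd2 (SE 0.24). No member passed the adjusted threshold within either driver. Tested directly, also as an addition, the genotype difference of Scd2 was 1.25 larger on the log2 scale in Pdx-Cre libraries (SE 0.29, unadjusted p = 0.000733, adjusted p = 0.627). That of Elovl2 was -0.71 apart (SE 0.28, unadjusted p = 0.0216, adjusted p = 0.996 by limma) and that of Elovl7 1.16 (SE 0.55, unadjusted p = 0.0517, adjusted p = 0.996). Over all genes that interaction called 0 of 11254 (0%) at the adjusted threshold and 546 (4.85%) at an unadjusted p under 0.05. Markers of other pancreatic cells moved with the driver, and their part in these values was not tested.

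Elovl5 was at 70.9, 76.1 and 49.9 FPKM in the ALDH- controls and at 55.5 and 44.8 in the ALDH+ controls, against 68.6 to 88.0 in the ALDH- and 49.9 to 82.3 in the ALDH+ knockouts. Its log2 difference was 0.32 (SE 0.11, adjusted p = 0.448 by limma) and was 0.32 and 0.31 within RIP-Cre and Pdx-Cre libraries. The other 6 members had log2 differences between -0.30 for Fads1 and 0.27 for Elovl6. For Elovl6 the 95% interval ran from -0.14 to 0.68.

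**Figure D2:**
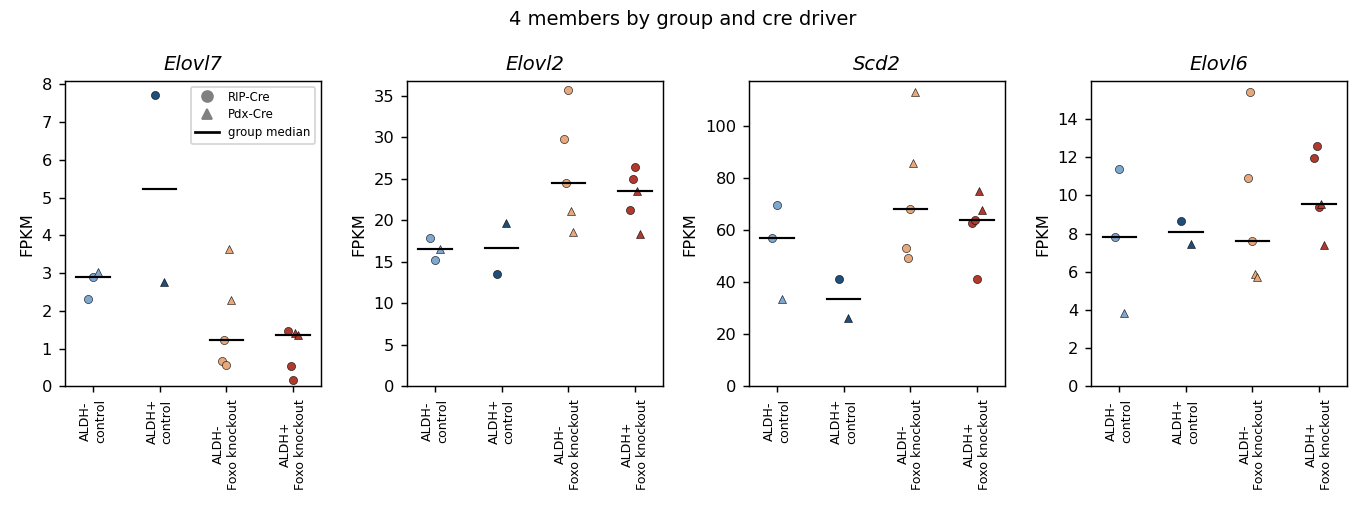
Points are FPKM values of Elovl7, Elovl2, Scd2 and Elovl6 by group, round for RIP-Cre and triangular for Pdx-Cre libraries, with bars at the group medians and axes from 0. The 6 RIP-Cre knockout points of Elovl7 lie between 0.167 and 1.47 FPKM, under every control, and the highest Scd2 points, 85.9 and 113 FPKM, are Pdx-Cre knockouts.

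Within the ALDH populations the knockout comparison had wider errors. Elovl7 was lower and Elovl2, Scd2, Elovl5 and Elovl6 were higher in the knockouts of both, and the other 5 members had log2 differences of opposite sign, such as Scd1 (0.89 in ALDH+ and -0.40 in ALDH- cells) and Fads1 (-0.64 and 0.035). In ALDH+ cells no member and none of 11254 genes (0%) passed the adjusted threshold by limma. Foxo1 itself, whose levels are given above, did not pass there. With 2 ALDH+ controls the lack of calls therefore does not show a lack of change. In the paper's test of read counts in ALDH+ cells, Foxo1 and Elovl7 passed as lower in knockouts. In the limma fit 746 genes (6.63%) had an unadjusted p under 0.05, Elovl7 (log2 difference -1.51, SE 0.45, adjusted p = 0.584) and Scd2 (0.93, SE 0.32, adjusted p = 0.639) among them. Without ALDH+ control replicate 1 that difference was -0.55 for Elovl7 and 1.38 for Scd2, and without replicate 2 it was -2.43 and 0.51. In ALDH- cells 2 genes (0.0178%) passed, none of them a member, and 652 (5.79%) had an unadjusted p under 0.05, of which Elovl2 (0.59, SE 0.21, adjusted p = 0.792) was the only member. The test of whether genotype acts differently in the populations called 0 genes (0%), with 477 (4.24%) at an unadjusted p under 0.05. Scd1, with a log2 interaction of 1.29 (SE 0.57, unadjusted p = 0.0386, adjusted p = 0.999), was the only member of that number.

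The second comparison set ALDH+ against ALDH- cells. Averaged over genotypes, 665 of 11254 genes (5.91%) passed the adjusted threshold and no member did. That count rested on 1 library, with 3 genes passing without ALDH+ control replicate 1, 297 to 411 without any 1 of the ALDH- controls and at least 488 without any other library. At an unadjusted p under 0.05 there were 2333 genes (20.7%) and 2 of the 10 members, Elovl5 and Elovl4, both lower in ALDH+ cells. The members' median log2 difference was -0.30, against -0.017 over all genes, with 7 of 10 below 0.

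Elovl5 had a log2 difference of -0.31 (SE 0.11, 95% interval -0.55 to -0.079, adjusted p = 0.108 by limma). Elovl4 was at 4.30, 3.94 and 2.49 FPKM in the ALDH- and at 2.23 and 2.71 in the ALDH+ controls. The ALDH- knockouts were at 3.91, 4.38, 3.63, 3.41 and 4.65 FPKM and the ALDH+ knockouts at 3.21, 2.27, 2.97, 1.35 and 2.14, which did not overlap. Its log2 difference was -0.47 (SE 0.20, adjusted p = 0.199 by limma). Nuclear-retained RNAs moved with the sort. Malat1, Neat1, Meg3 and Kcnq1ot1 were all higher in ALDH+ cells (4 of 4 at adjusted p under the threshold). Their sums were 272 to 1610 FPKM in ALDH- and 2045 to 4903 in ALDH+ libraries. The paper already names all 4 as higher in ALDH+ cells of this study, so the count is a description and not a separate test. Without ALDH+ control replicate 1 fewer genes than these 4 passed in all, as given above. Markers of pancreatic polypeptide cells, Ppy and Pyy, passed as lower in ALDH+ cells (2 of 2, median log2 difference -2.08), and the paper lists both as lower too. Medians were -0.77 for 3 alpha, -0.87 for 3 delta and -0.018 for 7 beta cell markers, none of which passed. The part of these RNAs and markers in the members' values was not tested.

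In control cells alone 121 genes (1.08%) passed, no member among them, and 1599 (14.2%) had an unadjusted p under 0.05. The 121 became 0 by limma without any 1 of the ALDH- controls (1212 to 1356 at an unadjusted p under 0.05), 1 without ALDH+ control replicate 1, 9 without ALDH- knockout replicate 1, 76 and 77 without ALDH+ knockout replicates 4 and 5, 244 without ALDH+ knockout replicate 3, and 100 to 172 otherwise. Scd1, which makes oleate from stearate, was the only member of the 1599. It was at 4.84, 4.22 and 1.502 FPKM in ALDH- and at 1.46 and 0.650 in ALDH+ controls, a log2 difference of -1.05 (SE 0.47, adjusted p = 0.318 by limma). The lowest library of each group was its Pdx-Cre library.

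In Foxo knockout cells alone 2 genes (0.0178%) passed and 1467 (13%) had an unadjusted p under 0.05, of which 3 were members, all lower in ALDH+ cells. Fads1 was at 20.5, 23.6, 11.9, 17.2 and 11.1 FPKM in ALDH- and at 18.1, 14.5, 8.58, 5.01 and 8.61 in ALDH+ knockouts, so the groups overlapped. Its log2 difference was -0.63 (SE 0.25, adjusted p = 0.299 by limma), that of Elovl4 -0.57 (SE 0.23, adjusted p = 0.299) and that of Elovl5 -0.29 (SE 0.13, adjusted p = 0.348). Elovl6 had a log2 difference of 0.23 (SE 0.22) in knockouts and 0.24 (SE 0.32) in controls.

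**Figure D3:**
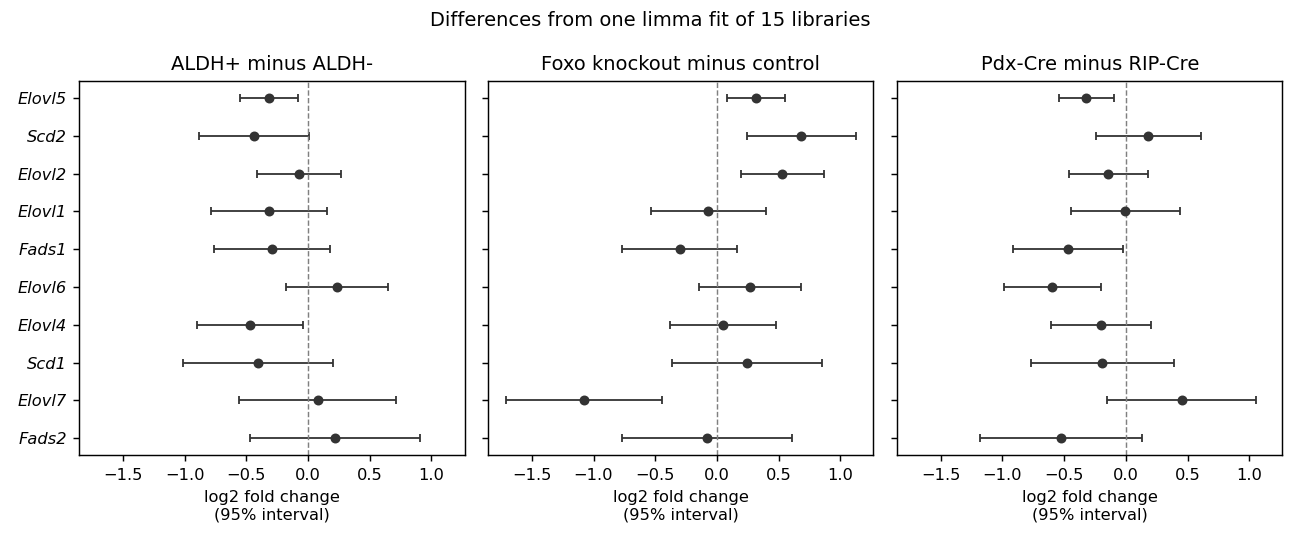
Points are log2 differences of the 10 members with 95% intervals from a limma fit of 15 libraries, for ALDH+ minus ALDH- cells, Foxo knockout minus control cells and Pdx-Cre minus RIP-Cre libraries. Elovl7 is lowest in the knockout panel at -1.08 and Elovl6 lowest in the cre panel at -0.60, and no member passed an adjusted p of 0.05.

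More genes passed between cre drivers than between genotypes. Between Pdx-Cre and RIP-Cre libraries 1107 of 11254 genes (9.84%) passed the adjusted threshold and 2891 (25.7%) had an unadjusted p under 0.05. The first count was 689 to 733 without ALDH+ control replicate 1 or 2, ALDH- control replicate 3, or replicate 5 of either knockout, and 839 to 1266 otherwise. No member passed, 3 of 10 had an unadjusted p under 0.05, and 8 of 10 were lower in Pdx-Cre libraries. Elovl6 was at 7.80, 11.4 and 8.67 FPKM in the 3 RIP-Cre controls and at 3.82 and 7.45 in the 2 Pdx-Cre controls. The knockouts spanned 7.62 to 15.4 FPKM with RIP-Cre and 5.70 to 9.56 with Pdx-Cre, an overlap of 2 RIP-Cre libraries with 1 Pdx-Cre library.

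The log2 difference of Elovl6 between drivers was -0.60 (SE 0.18, 95% interval -0.99 to -0.20, adjusted p = 0.0525 by limma), and that of Elovl5 was -0.32 (SE 0.11, adjusted p = 0.0654). Fads1 had a difference of -0.47 (SE 0.21, adjusted p = 0.169). Both of the first lay so near the threshold that other settings moved them across it: on FPKM as deposited the adjusted p was 0.0425 for Elovl6 and 0.0417 for Elovl5. The alpha, delta, acinar, macrophage and beta cell markers moved with the driver, as given above, and their part in these differences was not tested. Whether the ALDH difference depends on the driver was tested too, with 0 genes called (0%) and 518 (4.6%) at an unadjusted p under 0.05, none of them a member.

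Ratios of enzymes within a library were taken on deposited FPKM with 1 added to both enzymes, which pulls the ratios of low genes toward even. Of 3 ratios and 2 contrasts, 6 exact stratified permutation tests, none passed after adjustment. The log2 ratio of Elovl6 + 1 to Elovl5 + 1, which weighs elongation of saturated against polyunsaturated chains, was on average 0.52 higher in ALDH+ than in ALDH- libraries (group means -2.53 and -3.05, two-sided exact permutation p = 0.0278 over 720 arrangements, adjusted p = 0.136). The log2 ratio of Scd1 + 1 to Scd2 + 1 averaged -4.28 in knockouts and -3.80 in controls, a difference of -0.48 (exact permutation p = 0.0667, adjusted p = 0.136). The log2 ratio of Fads1 + 1 to Fads2 + 1 averaged 2.23 in ALDH+ and 2.97 in ALDH- libraries, a difference of -0.74 (exact permutation p = 0.0681, adjusted p = 0.136), on the low counts of Fads2, whose level near 1 FPKM makes the added 1 weigh heavily. With 0.1 added in place of 1 these differences were 0.56 (exact permutation p = 0.0306), -0.37 (p = 0.256) and -0.84 (p = 0.157). The other 3 tests had p between 0.601 and 0.953 by exact permutation.

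Across libraries the members did not move as a block. As a description over 15 libraries, which share group, driver and depth, the highest correlation of log2 values among the 45 pairs was that of Elovl4 with Elovl5 (r = 0.71) and the lowest that of Elovl2 with Elovl7 (r = -0.86). With the means of each group and driver removed, to which a group with 1 library of a driver adds nothing, Elovl4 and Elovl5 fell to r = 0.37, Elovl2 and Elovl7 were at -0.68, and the extremes were Scd2 with Fads2 (0.81, against 0.13 before) and Elovl2 with Fads1 (-0.89, against -0.19). The genes whose log2 levels were most like those of Elovl6 were Nedd9 (r = 0.91), Cux2 (0.91), Tshz1 (0.88), Prkd1 (0.87) and Setbp1 (0.87), and those most like Elovl7 were Jam3 (0.86), Epdr1 (0.84), Asb4 (0.83), Kcnj6 (0.83) and Pygo1 (0.82), each over 15 libraries and chosen from 11254 genes.

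**Figure D4:**
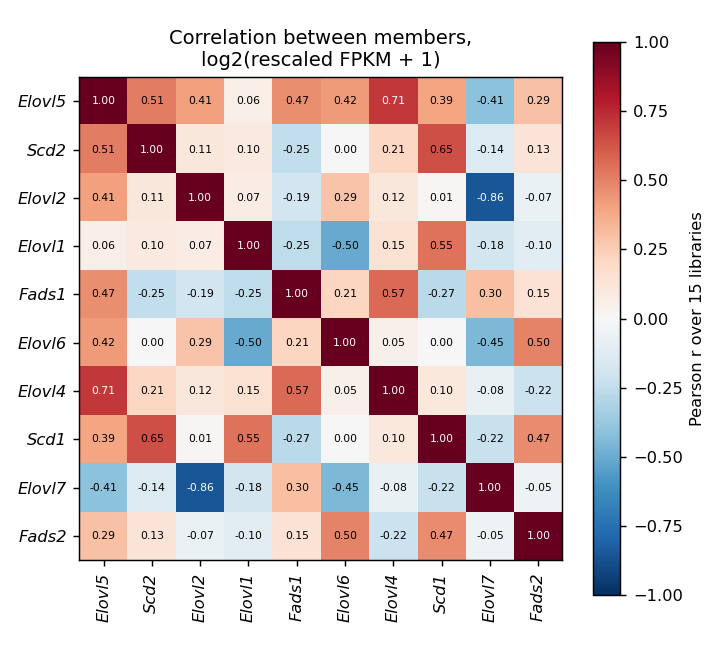
Cells give Pearson r of log2(rescaled FPKM + 1) between members over 15 libraries, on a scale from -1 to 1. The extremes off the diagonal are 0.71 for Elovl4 with Elovl5 and -0.86 for Elovl2 with Elovl7.

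The rest of the pathway was read from 69 listed genes, of which 59 were tested. In the comparison of genotypes none of the 59 passed the adjusted threshold and 5 (8.47%) had an unadjusted p under 0.05, near the 7.71% of all genes. The closest was Cyb5r3, the reductase that hands electrons to cytochrome b5 and so to the desaturases. It was at 291 to 339 FPKM in the 3 RIP-Cre and at 340 and 346 in the 2 Pdx-Cre controls, against 70.9 to 138 in the 6 RIP-Cre knockouts and 183 to 356 in the 4 Pdx-Cre knockouts. The RIP-Cre groups did not overlap, and the log2 difference was -1.19 over all libraries (SE 0.23, adjusted p = 0.0882 by limma), -1.67 within RIP-Cre (SE 0.23, adjusted p = 0.031) and -0.50 within Pdx-Cre (SE 0.32, adjusted p = 0.999).

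Between ALDH populations 1 of the 59 passed (1.69%, against 5.91% of all genes), Mlxipl (ChREBP), a transcription factor that turns on lipid synthesis genes in response to glucose, at 1.37 higher on the log2 scale in ALDH+ cells (SE 0.27, adjusted p = 0.00917). Mlxipl was at 16.4 to 38.3 FPKM in ALDH- and at 35.2 and 171 in ALDH+ controls. In knockouts it was at 8.82 to 39.6 FPKM in ALDH- and at 16.5 to 117 in ALDH+ libraries, so the groups overlapped in both genotypes. The value of 171 FPKM was that of ALDH+ control replicate 1, the library on which the count over all genes rested. Between drivers 5 of the 59 passed (8.47%, near the 9.84% of all genes). Cyb5r3 (1.06) and Thrsp, a cofactor of lipogenesis (1.68), were higher in Pdx-Cre libraries, and Mlxipl (-1.32), Cyb5b (-0.52), an outer mitochondrial cytochrome b5, and Mboat2 (-0.50), an acyltransferase of phospholipids, were lower. That fit held no term for genotype by driver. Cyb5r3 controls were close, at 291 to 339 FPKM with RIP-Cre and 340 to 346 with Pdx-Cre. The Cyb5r3 gap lay mainly between knockouts, at 70.9 to 138 FPKM with RIP-Cre and 183 to 356 with Pdx-Cre. The partners of the elongation cycle (5 tested), the acyl-CoA synthetases (5) and the enzymes of peroxisomal chain shortening (6) had no gene past the threshold in any comparison. Tecr, the reductase that closes the cycle, was at 176 to 365 FPKM and had a log2 difference of 0.19 (SE 0.16) between genotypes. Of the other elongases and desaturases, Elovl3 was listed at 0 in all 15 libraries and Scd3 reached 7.43 FPKM.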

How the data were processed

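RNA from sorted islet cells was sequenced after poly-A selection and TruSeq preparation. Per the labels, the submitters' processing notes name TopHat2 2.0.4, bcl2fastq 1.8.4 and mm9; the quantifier and annotation are not given in the sources used here. The authors deposited FPKM, one gene table for each library, laid out as Cufflinks writes them. Fragments behind a value were worked out from its confidence interval, and 66.5% of estimates under 500 lay within 0.02 of a whole number. Symbols listed more than once (248 on 712 lines) and 63 lines with a failed or too deep estimate were left out, Ins1 and Ins2 among them.

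FPKM were put on a common scale with TMM factors, unweighted, trimming 30% of M-values and 5% of A-values. The model for log2(rescaled FPKM + 1) held 4 groups and the cre driver over 15 libraries (limma 3.58.1, R 4.3.3, prior variance following the mean). Fold changes on this scale understate the change of low genes. Genes needed a mean rescaled FPKM of at least 1. P-values were two-sided and adjusted by Benjamini and Hochberg over all genes tested, with a threshold of 0.05. The study's methods test read counts with a negative binomial model; FPKM are not counts, so limma took its place. Ratios within libraries were tested by exact permutation within strata. The fits and permutations were tested on simulated data.

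All 10 members were named, with the pathway genes past the threshold in any comparison and the 2 most abundant of each pathway list eligible. Members, lists and markers were chosen with earlier results of these data known. Histidine codons were searched in GENCODE M21 coding sequences and promoters taken from RefSeq (GRCm38.p6). Alternatives were other scalings, pseudocounts, filters, subsets by cre driver, a replicate block, removal of the length trend and leaving out each library.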

Additional observations from a re-analysis of the deposited data

Results flagged for a closer look

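Scd1 in ALDH+ Foxo knockout replicate 2, at 4.62 FPKM, stood far above the other 4 libraries of its group, which were at 2.00 to 2.62 FPKM. The gap took up more of the group's range than Dixon's critical value allows. There were 20 such sets of 5 libraries, and chance flags about 1 in 20.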

How the results depend on the processing

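No member passed the adjusted threshold under any setting in the comparisons of ALDH populations and genotypes or their interaction, and directions that changed belonged to values that did not pass. A result kept its direction and its side of the threshold in 1925 of 2011 settings for single members and 101 of 111 for ratios. Between Pdx-Cre and RIP-Cre libraries the count of members passing, 0, became 2 on FPKM as deposited (Elovl6 and Elovl5), 1 with no filter on low values (Elovl5), 1 with a minimum of 5 (Elovl6), 1 with the length trend removed (Elovl5), and 0 to 1 over libraries left out (1 without ALDH- Foxo knockout replicate 3 or 5 or ALDH+ Foxo knockout replicate 3 or 4). Other log2 differences changed sign, and the cause was not tested.

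RIP-Cre libraries alone gave, for ALDH+ against ALDH-, Elovl6 -0.029 averaged and -0.11 in controls, for knockout against control, Scd1 -0.11 averaged, Elovl4 0.28 in ALDH+ and -0.0087 in ALDH- cells and Scd2 -0.12 in ALDH- cells, for the interaction, Elovl6 0.17 and Elovl4 0.29, and for the Fads1 to Fads2 ratio 0.0007 between genotypes. On those libraries the Elovl6 to Elovl5 ratio differed by 0.24 between ALDH populations. Pdx-Cre libraries alone, chosen after seeing the data, gave, for ALDH+ against ALDH-, Elovl2 0.10 and Elovl7 -0.44 averaged, Elovl2 0.13, Elovl7 -0.19, Fads1 -0.29 and Elovl4 0.0059 in controls, and Elovl2 0.075 and Scd1 -0.10 in knockouts, for knockout against control, Elovl4 -0.0035 averaged and Fads1 -0.24 and Scd1 0.51 in ALDH- cells, and for the interaction, Elovl5 -0.22. For ALDH+ against ALDH- cells, FPKM as deposited gave Elovl2 0.018 in controls and Elovl1 -0.0055 in knockouts, median-of-ratios scaling Elovl2 0.011 in controls, a pseudocount of 0.1 Elovl7 -0.049 averaged, and no cre term Fads1 -0.030 in controls. Median-of-ratios scaling gave Elovl1 0.011 between drivers. For the interaction, Elovl6 was 0.083 with no cre term and 0.069 with the length trend removed. Libraries of equal replicate number did not all deviate together from their group means (r between -0.24 and 0.41 over 7 pairs). The pair at -0.24, control replicate 2, joined a RIP-Cre with a Pdx-Cre library. With the cre driver fitted, r was between -0.045 and 0.070, and the number was not taken as a pairing. The replicate block keeps that control pair, and the block within cre driver does not. With the replicate block Fads2 was 0.19 in controls (0.12 with the block within cre driver), the interactions of Elovl2, Elovl6 and Elovl4 were 0.25, 0.10 and 0.14, and no member passed. The Elovl6 to Elovl5 ratio then differed by 0.47 between ALDH populations over the 7 pairs. Its p of 0.0625 came from an exact test that flips the sign of each pair's difference. Over all genes the block took the calls from 665 to 9 between ALDH populations (237 with the block within cre driver) and from 121 to 0 in controls (969 at an unadjusted p under 0.05 by limma).

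Leaving out each library gave these ranges where a sign or call changed. For ALDH+ against ALDH- averaged, the log2 difference ranged for Elovl2 from -0.27 to 0.14, Elovl7 -0.41 to 0.52. In controls, Fads1 -0.11 to 0.28, Fads2 -0.19 to 0.12, Elovl2 -0.41 to 0.42, Elovl7 -0.46 to 1.41, Elovl6 -0.011 to 0.52. In knockouts, Elovl1 -0.16 to 0.25. For knockout against control averaged, Fads2 -0.20 to 0.083, Elovl1 -0.19 to 0.012, Elovl4 -0.080 to 0.18. In ALDH+ cells, Elovl6 -0.015 to 0.52, Elovl4 -0.32 to 0.20, Fads2 -0.034 to 0.52. In ALDH- cells, Fads1 -0.13 to 0.25. For the interaction, Elovl6 -0.30 to 0.24, Elovl7 -1.77 to 0.10, Elovl2 -0.55 to 0.28, Elovl4 -0.48 to 0.035, Elovl5 -0.0002 to 0.12. Between drivers, Scd1 -0.33 to 0.0054, Elovl6 -0.67 to -0.50, Elovl1 -0.097 to 0.13, Elovl5 -0.38 to -0.28. The Elovl6 to Elovl5 ratio ranged from -0.14 to 0.10 between genotypes and from 0.45 to 0.63 between ALDH populations, where it passed (adjusted p = 0.0333, exact permutation) without ALDH- Foxo knockout replicate 2. Depth limits Fads2 and Elovl7, with as few as 4.00 and 8.00 fragments in a library, and 2 ALDH+ control libraries limit every comparison that uses them.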
